A study of Caenorhabditis elegans with 26 samples.

Results

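The heterochronic miRNA let-7 was followed through its 2 mature strands, the guide strand let-7-5p and the passenger strand let-7-3p, in small RNA libraries of whole *Caenorhabditis elegans* larvae. Both were chosen by name, as 2 of the 439 mature sequences listed in the deposited tables, with earlier results of these data known. Both passed the filter on low counts, which 217 sequences passed. The names fitted the counts, since let-7-5p had more reads than let-7-3p in all 26 libraries.

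*let-7* is a heterochronic gene, a gene that sets the order of developmental events, and its guide strand represses targets such as *lin-41* to bring about the transition from larval to adult fates. Drosha and Dicer cut the primary transcript to a hairpin and then to a duplex, from which an Argonaute protein keeps the guide strand while the passenger strand is usually discarded. In early larvae the RNA-binding protein LIN-28 restrains this processing, so mature let-7 is known for appearing late. In the WBcel235 annotation the *let-7* gene is annotated on chromosome X, minus strand, from 14743590 to 14745321, with 3 annotated primary transcripts. The hairpin spans 14744173 to 14744271, the guide strand 14744234 to 14744255 and the passenger strand 14744191 to 14744212, each of the latter 22 bases long. The protein-coding gene C05G5.7, from 14743670 to 14743780 on the same strand, falls within all 3 primary transcripts but outside the hairpin.

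Larvae synchronized at the L1 stage were plated at 25 °C and collected hourly from 18 h to 30 h. The strains were N2 (wild type) and HW2643, genotype *mir-235(xe181[seed_mutant])*, called *mir-235(seed_mut)* or the mutant, in which genome editing replaced bases of the miR-235-3p seed, the stretch of a miRNA that pairs with targets, and changed the opposite strand to match. Neither strain was treated, and *let-7* was not edited in either. Each strain gave 13 libraries, 1 per hour, with no replicates at an hour and no second culture series named, so strain cannot be told apart from culture and p-values reflect only how far single hours scatter around a fitted curve.

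Library totals ranged from 1342771 counts, in N2 at 23 h, to 4279734, with a median of 3005586. The entry for the edited miR-235-3p sequence held at least 99.7% of miR-235-3p counts in each mutant library and at most 2.66% in each of N2, so the libraries bore their labels. Markers of muscle (miR-1-3p), neurons (lsy-6-3p, miR-124-3p, miR-790-5p and miR-791-3p) and intestine (miR-60-3p) were read in every library. By a linear term over hours shared by the strains, miR-60-3p rose by 0.08 log2 per h (edgeR adjusted p = 0.00131), lsy-6-3p fell by 0.06 (adjusted p = 0.00605) and miR-790-5p fell by 0.07 (adjusted p = 0.00473), while the other 3 were not called. Their part in the values of let-7 was not tested. Levels are given as CPM, a count scaled to its library total in the usual way, with exact Poisson 95% intervals that cover counting error only, since reads carried no molecular identifiers.

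Between 18 h and 23 h the guide strand rose many-fold, and its level then ranged over a smaller fold through 30 h. From 18 h through 22 h it read 641, 850, 1044, 2991 and 8539 CPM in N2, and by 23 h it had reached 35386 CPM. From 23 h to 30 h all 8 N2 libraries lay between 25620 and 35455 CPM, the last at 30 h, which was 55.3 times the level at 18 h. The mutant read 751, 830, 1765, 10108 and 12432 CPM through the same 5 hours, then ranged from 15918 to 38148 CPM over the 8 libraries from 23 h, again highest at 30 h, at 50.8 times its 18 h level. The ranges from 18 h to 22 h and from 23 h on did not overlap in either strain, at a cut taken from these values. How many other miRNAs separate at this cut was not counted. As a share of all counts the guide went from 0.0641% to 3.55% in N2 and from 0.0751% to 3.81% in the mutant. In whole larvae, more RNA per cell and more cells that make the miRNA cannot be told apart.

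The steps between hours were uneven. The largest hourly step in N2 was 4.14-fold, between 22 h and 23 h (95% counting interval 4.08 to 4.21), after steps of 2.86-fold and 2.85-fold in the preceding hours. In the mutant the largest came earlier, 5.73-fold between 20 h and 21 h (5.57 to 5.89), followed by 1.23-fold and 1.65-fold. The guide first passed 0.5 of its own 30 h level at 23 h in both strains. In the mutant it was below that level, 19074 CPM, again at 24 h, at 15918 CPM. From 24 h on, N2 libraries averaged 28318 ± 3436 CPM (mean ± SD, n = 7 hours) and mutant libraries 26282 ± 7418 CPM (n = 7 hours).

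**Figure D1:**
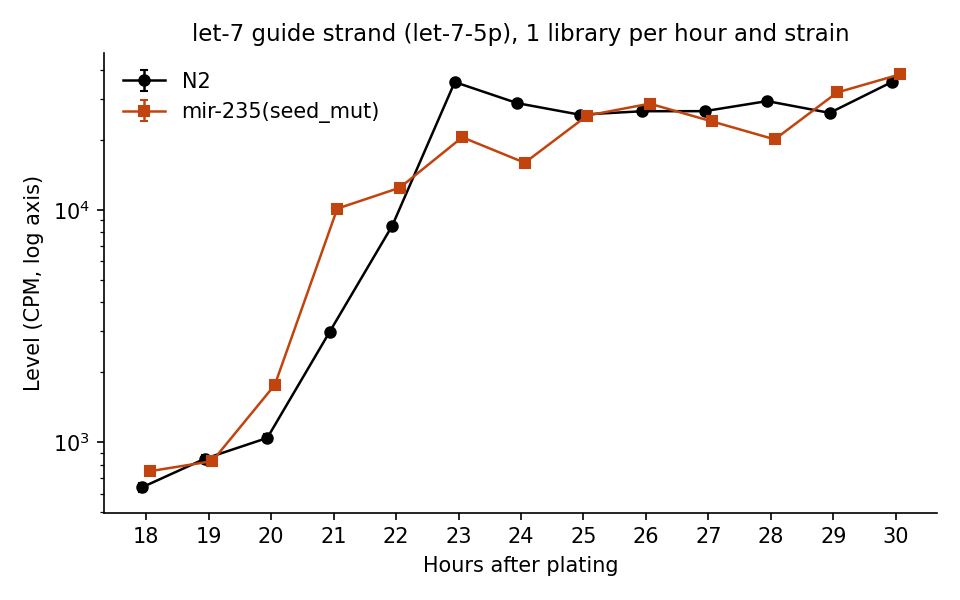
Level of the let-7 guide strand (CPM, log axis) against hours after plating, 1 point per library, in N2 (black circles) and the mutant (orange squares), with Poisson 95% intervals that are mostly smaller than the points. The strains start at 641 and 751 CPM at 18 h, climb until 23 h and do not fall under 15918 CPM from then on.

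The rise passed the test across all miRNAs. The linear term shared by the strains, fitted beside strain and a 7 h cosine and sine in each strain, was 0.46 ± 0.08 log2 per h for let-7-5p (SE; edgeR adjusted p = 5.85e-05). This was the 7th steepest rise among 217 miRNAs, of which 45 (20.7%) rose and 43 (19.8%) fell by the same test at an adjusted p under 0.01, 40.6% in all. The N2 libraries alone had a slope of 0.51 ± 0.12 log2 per h (edgeR adjusted p = 0.0027; 11.5% of miRNAs rose). Those of the mutant had 0.43 ± 0.11 (adjusted p = 0.00435; 16.1% rose). Each of these lost its call when the 18, 19 or 20 h library of that strain was left out, with slopes down to 0.43 and 0.35 and adjusted p-values up to 0.0113 and 0.0203. The shared slope kept its call in all 26 such fits, between 0.43 and 0.51.

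A straight line described the guide poorly, and a line allowed to bend at 24 h, the middle of the course, was fitted with the bend shared by the strains. let-7-5p rose by 0.995 ± 0.085 log2 per h before 24 h, or 1.99-fold each hour (edgeR adjusted p = 3.45e-10; 9.22% of miRNAs rose in this stretch). After 24 h its slope was -0.04 ± 0.07 log2 per h (adjusted p = 0.709; 13.4% of miRNAs changed in either direction). The change of slope was -1.04 ± 0.13 log2 per h (adjusted p = 1.02e-06), the most negative of the 217, where the median was -0.03. That of let-7-3p was the next most negative, at -0.68 ± 0.30, but was not called (edgeR adjusted p = 0.299). By this test 2 miRNAs, or 0.922%, were called for a lower slope after 24 h, let-7-5p and miR-247-3p, whose slope turned from 0.13 to -0.16 log2 per h, and miR-246-3p alone (0.461%) for a higher one, 1.38% in both directions. The latter 2 names were chosen after their values were seen. The bend carried no cosine terms, so a rhythm can enter it. With the bend at 26 h the size was alike, -1.02, but the call was lost (adjusted p = 0.0151). The slope after the bend moved with its place. It was 0.15 ± 0.05 log2 per h after 22 h (edgeR adjusted p = 0.0293) and -0.27 ± 0.16 after 26 h (adjusted p = 0.324). Without the N2 library of 23 h, which had the lowest total, or any other single library, the change of slope at 24 h lay between -1.11 and -0.88. Its adjusted p-values were then no higher than 7.19e-06.

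The guide moved from a minor to a large share of its family. The let-7 family in this species also includes miR-48, miR-84 and miR-241, known to act in developmental timing, as well as miR-793, miR-794 and miR-795. At 18 h let-7-5p held 2.24% of the summed counts of these 7 guides in N2 and 2.74% in the mutant. In N2 its share was highest at 23 h, at 54.5%, and lay between 36.2% and 42.5% from 24 h to 30 h. In the mutant it was highest at 30 h, at 45.1%, and lay between 27.1% and 45.1% over the same hours. In the mutant at 24 h miR-48-5p, at 29713 CPM, stood above let-7-5p, at 15918 CPM. In N2 at 24 h, and in both strains at 30 h, let-7-5p was the higher of these guides. By rank among all miRNAs in a library the guide went from 58th to 8th in N2, with 7th at 23 h, and from 52nd to 8th in the mutant.

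Its relatives had smaller fitted slopes. Of the 6 other family guides, 3 rose and 1 fell by the linear term, against 45 risen and 43 fallen of all 217 tested. miR-48-5p, the most abundant of them, rose by 0.11 log2 per h (edgeR adjusted p = 4.56e-10) within a range of 14625 to 35290 CPM, miR-84-5p by 0.07 (adjusted p = 3.38e-05) and miR-241-5p by 0.10 (adjusted p = 1.36e-05). miR-793 fell by 0.06 log2 per h (adjusted p = 0.000787). None of the 6 was called for a change of slope at 24 h (1.38% of all miRNAs tested) or a rhythm (5.99% in N2 and 2.3% in the mutant). At such shares 6 miRNAs cannot show whether the relatives differ from the rest. The median slope of the 6 was 0.02 log2 per h, beside 0.00 over all miRNAs tested.

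**Figure D2:**
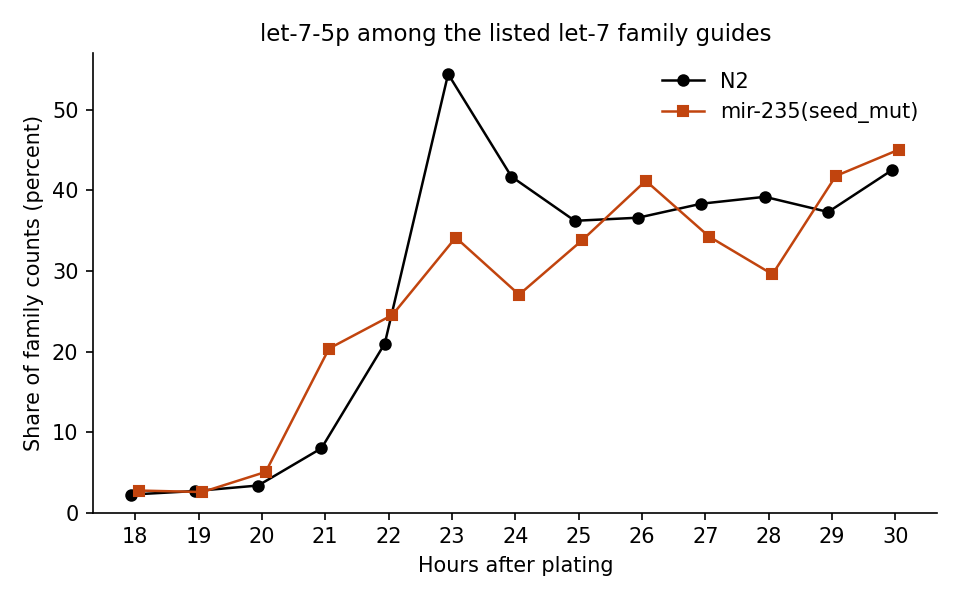
Share of let-7-5p in the summed counts of 7 let-7 family guides (percent) against hours after plating, 1 point per library, in N2 (black circles) and the mutant (orange squares). Both strains start under 3% and reach 54.5% in N2 at 23 h and 45.1% in the mutant at 30 h.

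The passenger strand rose, fell and rose again. From 18 h through 24 h it had 4, 3, 12, 101, 282, 148 and 146 reads in N2. It fell to 61, 64 and 36 reads at 25, 26 and 27 h and came back with 74, 365 and 358 reads at 28, 29 and 30 h. Scaled to the library totals, N2 went from 1.06 CPM at 19 h (interval 0.218 to 3.09) through 106 CPM at 22 h and 110 at 23 h, down to 11.7 at 27 h (8.16 to 16.1), and up to 102 and 108 CPM at 29 and 30 h. The 18 h and 19 h libraries stood at or near the floor of 3 counts, and their intervals overlapped.

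In the mutant the passenger strand had 10, 35, 110, 511, 317, 256 and 267 reads from 18 h to 24 h, then 87, 50, 147, 204, 361 and 309 from 25 h to 30 h. Scaled to the totals it went from 2.91 CPM in the earliest library to 119 by 21 h and 113 by 22 h, down to 18.8 by 26 h and back to 122 by 29 h. The high of the first rise thus fell at 21 h in the mutant and 23 h in N2, and the low at 26 h and 27 h. Neither high stood apart from its neighbour, as the step from 22 h to 23 h in N2 was 1.04-fold (95% counting interval 0.849 to 1.28) and that from 21 h to 22 h in the mutant 0.944-fold (0.818 to 1.09). In both strains that low was still above the level at 19 h.

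Both high stretches stood several-fold above the low between them. In N2 the level at 23 h was 9.46 times that at 27 h (95% counting interval 6.53 to 14.02), and the level at 30 h was 9.29 times it (6.58 to 13.5). In the mutant the level at 21 h was 6.35 times that at 26 h (4.74 to 8.67), and the level at 29 h was 6.48 times it (4.81 to 8.89). Against the earliest hours the folds were larger and less certain, 104 from 19 h to 23 h in N2 (34.9 to 511) and 41.0 from 18 h to 21 h in the mutant (22.1 to 86.1).

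**Figure D3:**
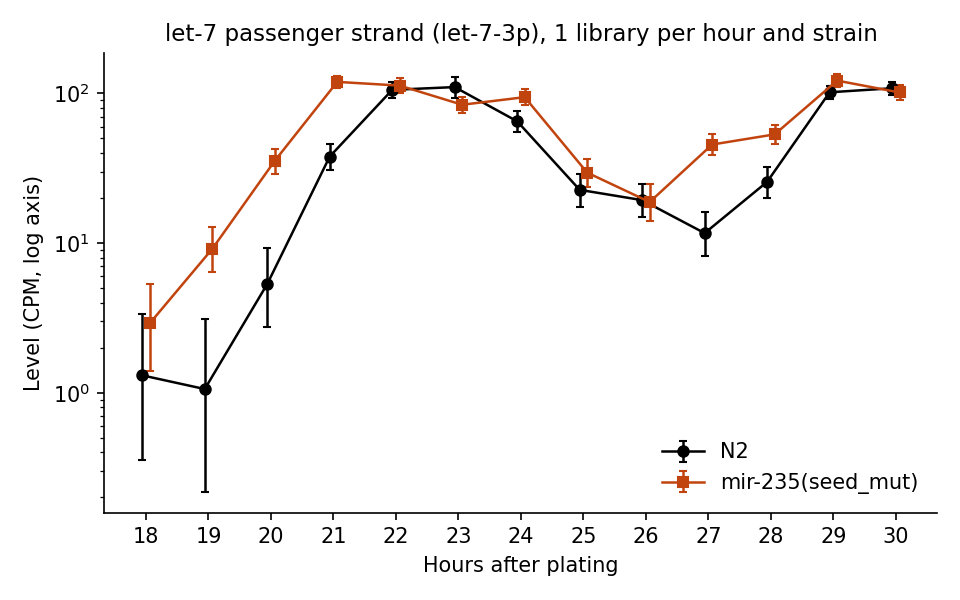
Level of the let-7 passenger strand (CPM, log axis) against hours after plating, 1 point per library with its exact Poisson 95% interval, in N2 (black circles) and the mutant (orange squares). The strains reach 110 CPM at 23 h in N2 and 119 CPM at 21 h in the mutant, fall to 11.7 CPM in N2 at 27 h and 18.8 CPM in the mutant at 26 h, and are back at 101 to 122 CPM at 29 h and 30 h.

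When cosine and sine terms of 7 h were fitted next to a line for each strain, the amplitude of let-7-3p was 1.92 ± 0.36 log2 units, midline to peak, in N2 (delta-method SE; edgeR adjusted p = 0.00159), with the peak at 22.7 h. It was the largest fitted amplitude of the 217, 13 of which (5.99%) were called rhythmic in N2. In the mutant the amplitude was 1.41 ± 0.34 with the peak at 22.2 h, again the largest of all, but it did not pass the threshold of 0.01 (adjusted p = 0.0261), which 5 miRNAs (2.3%) did. From trough to peak these amplitudes correspond to 14.4-fold and 7.05-fold. A difference between the strains' rhythms was not called (amplitude -0.52 ± 0.50, mutant minus N2, 95% interval -1.49 to 0.46; adjusted p = 0.844), for which 1 miRNA, 0.461%, was called. A course of 12 h holds fewer than 2 periods, so amplitude and slope are partly confounded.

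Because the earliest hours held few passenger reads, the fit was repeated over 21 h to 30 h, a choice made after the values were seen. The amplitude in N2 was then 1.58 ± 0.18 log2 units, peaking at 22.8 h (edgeR adjusted p = 5.4e-05). That of the mutant was 1.07 ± 0.17, peaking at 22.3 h (adjusted p = 0.00639). Of 219 miRNAs tested over these 20 libraries, 7 (3.2%) were called rhythmic in N2 and 4 (1.83%) in the mutant. The call thus held in N2 without the 3 earliest hours, although N2 was still climbing between 21 h and 22 h (2.79-fold, 2.21 to 3.54), and the mutant passed the threshold as well. With a period of 6.5 h over the full course the amplitude in N2 was 1.81 but was not called (adjusted p = 0.0193).

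By the linear term beside the cosine and sine, the passenger strand had no called trend over the full course. That shared slope was 0.10 ± 0.05 log2 per h (edgeR adjusted p = 0.0963), and over 21 h to 30 h it was -0.02 ± 0.03 (adjusted p = 0.499). The passenger level at 30 h was 82.8 times that at 18 h in N2 and 34.8 times in the mutant. The 18 h libraries held 4 and 10 passenger reads. Before a bend at 24 h, fitted without cosine terms, the passenger slope was 0.59 ± 0.20 (edgeR adjusted p = 0.0363, not called). DESeq2 and limma with a pseudocount of 8 or 1 called that slope. The guide strand, in turn, had no called rhythm, with an N2 amplitude of 1.08 ± 0.46 log2 units (adjusted p = 0.243) and a mutant amplitude of 0.41 ± 0.46 (adjusted p = 0.852). These amplitudes ranked 4th and 32nd of 217. With a period of 8 h they were 1.42 (edgeR adjusted p = 0.0197) and 0.85 (adjusted p = 0.369). The fit took a straight line as the trend, which described the guide poorly, so a guide rhythm is not excluded. The shared slope of the guide over 21 h to 30 h was 0.21 ± 0.05 log2 per h (adjusted p = 0.00327), where 24.7% of miRNAs were called in either direction. Across the 26 libraries the log2 levels of the strands had a Pearson r of 0.71 and a Spearman rho of 0.48, a description only, since libraries share hours and strains.

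The number of guide reads per passenger read passed through a low and then a high. In N2 it was 79.0 at 21 h (95% counting interval 64.9 to 97.1) and 80.9 an hour later, then climbed through 321, 441, 1129 and 1369 to 2277 at 27 h (1644 to 3251). It came down to 1142, 256 and 328 in the last 3 hours. In the mutant the low was 49.8, reached at 20 h (41.2 to 60.7), and the high 1520, reached at 26 h (1152 to 2047), with 262 and 376 in the last 2 hours. Before the low the ratio was higher, 490 and 802 in the N2 libraries of 18 and 19 h, which had 4 and 3 passenger reads, and 258 in the mutant library of 18 h. Put as shares, the passenger strand made up 0.0439% to 1.25% of let-7 reads in N2 and 0.0658% to 1.97% in the mutant.

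**Figure D4:**
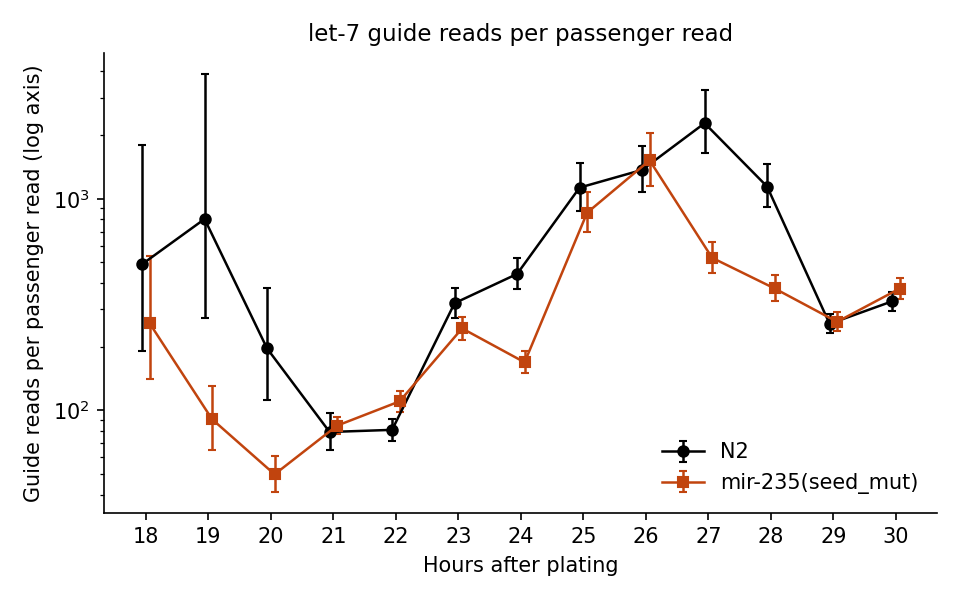
Guide reads per passenger read of let-7 (log axis) against hours after plating, 1 point per library with its 95% counting interval, in N2 (black circles) and the mutant (orange squares). The ratio is lowest at 21 h in N2 (79.0) and at 20 h in the mutant (49.8), and highest at 27 h in N2 (2277) and at 26 h in the mutant (1520).

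The ratio was set beside that of 78 hairpins with both arms listed and a mean of at least 10 counts in the less abundant arm, as log2 of the more over the less abundant arm with 0.5 added to each. By a linear term fitted beside a 7 h cosine and sine in each strain, the let-7 ratio rose by 0.29 ± 0.04 log2 per h (limma adjusted p = 1.72e-05). This was the largest slope of the 78, of which 7 (8.97%) rose and 9 (11.5%) changed in either direction. It is not the change from end to end. The ratio at 30 h was 0.668 times that at 18 h in N2 and 1.46 times in the mutant. By strain the slope was 0.28 ± 0.06 for N2 (adjusted p = 0.0033; 8.97% rose) and 0.31 ± 0.06 for the mutant (adjusted p = 0.0025; 3.85% rose). Their difference was 0.03 ± 0.09 log2 per h (95% interval -0.14 to 0.20; adjusted p = 0.998). The ratios of miR-48 and miR-84, relatives of let-7, also rose, by 0.10 and 0.15 log2 per h (adjusted p = 0.0019 and 3.88e-07), taken as guide over passenger. In miR-241 the 3p arm was the more abundant, and its ratio of 3p to 5p fell by 0.10 (adjusted p = 0.000183), so there too the 5p arm gained on the 3p arm. Left out singly, the N2 libraries of 20, 21, 27 or 28 h took the call from the slope in N2, and the mutant library of 26 h that in the mutant, with adjusted p-values up to 0.0141 and 0.0125. A period of 6.5 h ended both calls (adjusted p = 0.0315 in N2 and 0.0166 in the mutant).

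A rhythm of the let-7 ratio was called in N2, with an amplitude of 1.73 ± 0.32 log2 units (limma adjusted p = 0.00208), the largest of the 78 hairpins, of which 10 (12.8%) were called. The fitted peak at 18.7 h recurs 1 period of 7 h later. In the mutant the amplitude was 1.17 ± 0.32 (adjusted p = 0.0676), not called, where 2 hairpins (2.56%) were. The difference of the amplitudes, mutant minus N2, was -0.56 ± 0.45 (95% interval -1.44 to 0.32; adjusted p = 0.76). Without the N2 library of 22 h the call in N2 was lost, at an adjusted p of 0.0108, and a period of 6.5 h gave 1.53 (adjusted p = 0.0405). Over 21 h to 30 h the amplitude in N2 was 1.68 ± 0.33 (adjusted p = 0.00669; 6.41% of hairpins called) and the shared slope 0.25 ± 0.05 log2 per h (adjusted p = 0.00419; 5.13% called). The fold between the highest and lowest ratio over the 26 libraries was 45.3 for let-7, the second widest of the 78, whose median was 4.39.

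The strains were compared hour by hour and over the course. For the guide the mutant level over the N2 level was 1.17, 0.977, 1.69, 3.38 and 1.46 from 18 h through 22 h. It was 0.579 and 0.554 in the next 2 hours and between 0.685 and 1.22 from 25 h to 30 h. The guide was higher in the mutant at 7 of 13 hours. The mean strain difference, from a fit with a spline over hours, was -0.07 ± 0.20 log2 units, mutant minus N2 (95% interval -0.46 to 0.32; edgeR adjusted p = 0.823). With the mutant hours moved 1 h later it was -0.54 (adjusted p = 0.0671) and with them moved 1 h earlier 0.38 (adjusted p = 0.347). The slopes differed by -0.08 ± 0.16 log2 per h (-0.38 to 0.23; adjusted p = 0.893). For the slope difference 0 of 217 miRNAs (0%) were called by edgeR, DESeq2 or limma with a pseudocount of 8, and 15 had an unadjusted edgeR p under 0.05.

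The passenger strand was higher in the mutant at 10 of 13 hours. The mutant level over the N2 level began at 2.23 (95% counting interval 0.642 to 9.72) at 18 h and was then 8.64 (2.72 to 43.9), 6.65 (3.66 to 13.3) and 3.15 in the next 3 hours. It was between 0.762 and 1.45 from 22 h to 26 h, then 3.91 at 27 h (2.70 to 5.80) and 2.07 at 28 h, and 1.197 and 0.937 in the last 2 hours. The gap was above 3-fold at 19, 20, 21 and 27 h.

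Over the course the passenger strand differed by 0.63 ± 0.21 log2 units, mutant minus N2 (95% interval 0.21 to 1.05; edgeR adjusted p = 0.046), which did not pass the threshold of 0.01, while 16 miRNAs (7.37%) did, 6 of them (2.76%) higher in the mutant. The test of any strain difference over time gave an adjusted p of 0.0548 for the passenger strand and 0.53 for the guide. It called 0 of 217 miRNAs (0%) in edgeR, with 34 at an unadjusted p under 0.05, 8 by DESeq2 and 0 by limma with a pseudocount of 8, while limma with a pseudocount of 1 called the passenger strand (adjusted p = 0.00423). DESeq2, which called 24 miRNAs for the mean difference, called the passenger strand for it (0.73 log2 units, adjusted p = 0.00549) and for any difference (adjusted p = 5.99e-06). With the mutant hours moved 1 h later the edgeR mean difference was 0.28 (adjusted p = 0.272), with them moved 1 h earlier 1.04 (adjusted p = 0.0663), and over 21 h to 30 h it was 0.42 (adjusted p = 0.248). An offset between the cultures in developmental time and an effect of the allele cannot be told apart here.

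**Figure D5:**
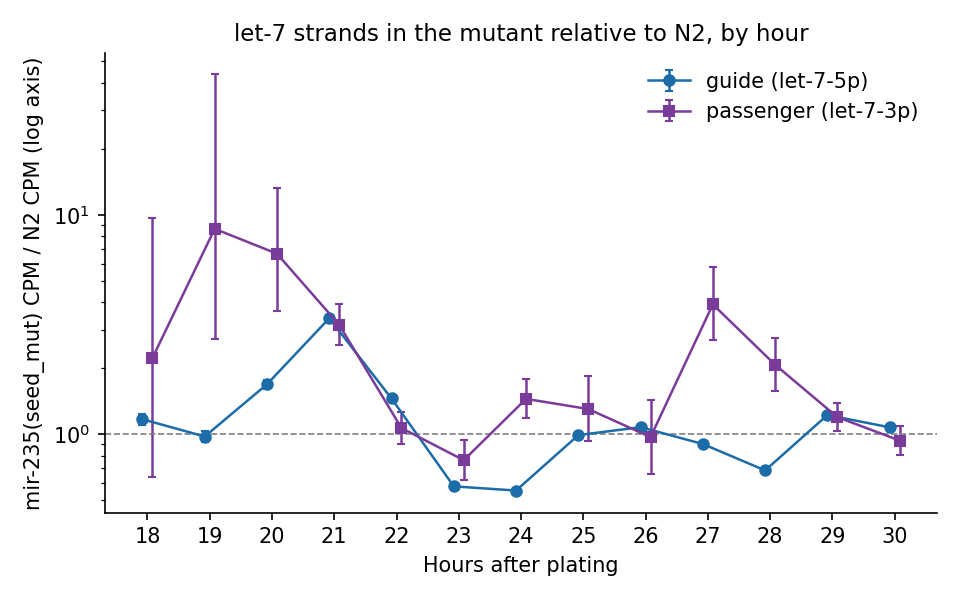
Level in the mutant over the level in N2 (ratio of CPM, log axis) against hours after plating, for the let-7 guide strand (blue circles) and passenger strand (purple squares), with 95% counting intervals and a dashed line at a ratio of 1. The guide is farthest above 1 at 21 h (3.38) and lowest at 24 h (0.554), and the passenger strand is highest at 19 h (8.64).

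The log2 ratio of guide to passenger averaged 8.74 ± 1.498 in N2 and 7.93 ± 1.40 in the mutant (mean ± SD over 13 hours). The mutant was lower at 8 of 13 hours, by a mean of 0.82 ± 0.30 log2 units (SE). An exact two-sided sign-flip permutation test over the 13 hours gave p = 0.0181, where 0.000244 is the smallest p it can give, for this single value. Hours of 1 culture series are not independent samples. In the fit across 78 hairpins the same difference, -0.82 ± 0.25, had a limma adjusted p of 0.0565 (1.28% called). Over 21 h to 30 h it was -0.49 ± 0.26 (adjusted p = 0.392), and without the pair of 19 h, where N2 had 3 passenger reads, the mean over the other hours was -0.64 (exact p = 0.0361).

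Other opposite strands of timing miRNAs gave a setting for the passenger strand. Of lin-4-3p and the 3p arms of miR-237, miR-48, miR-84 and miR-241, the less or more abundant partners of guides in developmental timing, 2 of 5 were called rhythmic in N2, where 5.99% of all miRNAs were, and the same 2 in the mutant, where 2.3% were. lin-4-3p, partner of the lin-4 guide that acts earlier in the same pathway, had amplitudes of 1.12 log2 units in N2, peaking at 23.0 h (adjusted p = 0.00385 by edgeR), and 1.34 in the mutant, peaking at 22.6 h (adjusted p = 0.00116). miR-237-3p, of a lin-4 relative, had 0.94 (adjusted p = 0.00011) and 0.67 (adjusted p = 0.00916), with peaks at 22.5 h and 21.8 h. The median amplitude of the 5 was 0.37 in N2 and 0.45 in the mutant, beside 0.19 and 0.20 over all 217. Both lin-4 family guides, lin-4-5p and miR-237-5p, had no called slope, bend or rhythm. Of all miRNAs tested, 40.6% were called for a slope and 1.38% for a bend, and rhythm calls were as rare as given above.

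By the correlation of log2 levels over the 26 libraries, among the 175 tested miRNAs that averaged 50 counts or more, the patterns most like that of the guide were those of miR-240-3p (r = 0.92), miR-786-3p (0.90), miR-241-5p (0.89), miR-240-5p (0.88) and miR-85-3p (0.86). Those most like that of the passenger strand were miR-240-5p (0.80), miR-237-3p (0.70), miR-39-5p (0.65), miR-240-3p (0.63) and miR-58a-5p (0.61). The partner strand was left out of these lists, and at 0.71 the guide would stand between miR-240-5p and miR-237-3p. Both arms of miR-240 were thus on both lists by this Pearson correlation. With the straight line over hours removed within each strain, 2 of the 5 for the guide and 3 of the 5 for the passenger strand kept their place. miR-240-5p then left the list of the guide and miR-240-3p that of the passenger strand, as both did by Spearman rho. These are descriptions over libraries that share hours and strains.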

How the data were processed

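Small RNAs of 26 libraries, 13 hours in each strain, were analysed from raw read counts deposited by the authors. Libraries, prepared using a CleanTag kit, were size-selected (140 to 160 bp) and sequenced single-end over 51 cycles. The authors aligned reads to ce10 with Bowtie (version not given in the sources used here) through QuasR, allowing up to 100 matches. They counted reads of the same strand whose start fell within 3 bases of the 5′ end of a miRBase 22 mature sequence. A second deposited table holds log2 values with a pseudocount of 8. These log2 values follow from the counts within 0.0005 and were not tested.

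The tests of counts used edgeR 4.0.16 under R 4.3.3 (TMM, filterByExpr by strain, robust glmQLFit, glmQLFTest), with the alleles of miR-235 summed per arm and Benjamini-Hochberg adjustment over 217 miRNAs at a threshold of 0.01. Fits used a 7 h cosine and sine with a linear term, a bend at 24 h, or a cubic spline with 6 components. Arm ratios were tested with limma 3.58.1 (trend, robust). Shares carry Wilson and folds of counts exact binomial 95% intervals. Scripts were tested on simulated counts. Alternatives covered scaling, filter, tool (DESeq2 1.42.0), pseudocount, period, bend, hour shifts, block and each library left out. Named miRNAs were the 2 strands, the 5 most like each and listed relatives. The members and lists were chosen with earlier results of these data known. Coordinates are from the WBcel235 annotation, not ce10, and no mature sequence is shown.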

Additional observations from a re-analysis of the deposited data

How the results depend on the processing

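The rise of the guide strand, its change of slope at 24 h and the rhythm of the passenger strand in N2 kept direction and call under both other scalings, both other filters, DESeq2, limma with a pseudocount of 8 or 1, with the alleles of miR-235 kept apart and in all fits with 1 library left out. The linear term of the arm ratio did so with a pseudocount of 2, a mean of 50 counts, both other periods and each library left out. A bend at 26 h ended the guide's call (-1.02) and one at 22 h gave the passenger strand a called change of slope (-1.32 log2 per h, edgeR adjusted p = 0.0013). A period of 6.5 h ended the calls of the passenger rhythm (1.81) and the ratio rhythm (1.53) in N2, and those of the ratio slope within N2 (0.26) and within the mutant (0.29). A period of 8 h brought calls for the passenger slope (0.17 log2 per h) and for the mutant's rhythm of the passenger strand (1.44) and of the ratio (1.30). The mutant's passenger rhythm was also called over 21 h to 30 h (1.07), and at a threshold of 0.05 it (1.41) and the passenger's mean strain difference (0.63) were called. DESeq2 called the latter too (0.73). The test of any strain difference in the passenger strand was called without a filter (adjusted p = 0.00339), by limma with a pseudocount of 1 (0.00423), by DESeq2 (5.99e-06) and with mutant hours moved 1 h earlier (7.3e-05). Over single libraries left out its adjusted p ranged from 0.00788, without N2 at 26 h, to 0.168, and the ratio amplitude in N2 from 1.59 to 1.97. The passenger amplitude in N2 ranged from 1.83 to 2.33 with adjusted p-values up to 0.00858. The sign-flip p for the ratio ranged from 0.00977 to 0.0361. The cause of these changes was not tested.

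The hour as a block, the only pairing the labels allow, gave 0.63 log2 units for the passenger's mean strain difference (adjusted p = 0.0764) and changed no call of the strands. Counts of calls moved with the setting, from 54 to 120 for the shared slope (88 as reported), 0 to 9 for the change of slope (3), 6 to 25 for rhythm in N2 (13), 2 to 23 for rhythm in the mutant (5) and 0 to 35 for the mean strain difference (16). For hairpins they ranged from 4 to 19 for the slope (9), 3 to 12 for rhythm in N2 (10) and 0 to 5 for rhythm in the mutant (2). Leaving out 1 library also moved counts by over 1.5 times, in 21 of 26 fits for the mean strain difference (range 1 to 21), 12 for rhythm in the mutant (1 to 18), 2 for the change of slope (2 to 5, without N2 at 28 h or the mutant at 30 h), 11 for hairpins rhythmic in N2 (4 to 10) and 17 for those in the mutant (0 to 3). The hour as a block left 1 call of a mean strain difference. With few reads of the passenger strand at 18 h and 19 h in N2, ratios at those hours are the least certain.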
